A study of Mus musculus with 6 samples.

Results

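Sphingosine-1-phosphate (S1P) genes and the gene of its plasma carrier, apolipoprotein M, were followed in CD31-sorted kidney cells. The set was taken by gene symbol from the deposited table and holds 8 of its 55487 genes. They are the receptors S1pr1 and S1pr3, the exporter Spns2, the kinases Sphk1 and Sphk2, the lyase Sgpl1, the phosphatase Plpp3 and the carrier Apom. The genes were proposed with results of the same comparison in view, so their values are a description.

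The study compared 3 I-PpoI mice with 3 controls. The I-PpoI mice carried a VE-cadherin Cre transgene, active in endothelium, and an I-PpoI gene behind a STOP cassette at a Rosa locus, which the genotype labels write as ROSA26, ROSA27 and ROSA28 for the 3 mice. The I-PpoI enzyme cuts DNA through both strands, and the controls were wild-type littermates. All 6 mice left chow for a diet in which fat gave 60% of the energy at 8 weeks of age, and kidneys were taken 4 weeks later. Every library carries the same batch label, and values below are listed in the order of mouse 1, 2 and 3 within each group.

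S1P is a lipid signal made inside cells by the sphingosine kinases and carried out of endothelial cells by Spns2. In plasma it travels on apolipoprotein M, which sits on high-density lipoprotein and is made mainly in hepatocytes and kidney tubule cells, and on albumin. On endothelium S1P acts through S1pr1, which couples to Gi and Rac1 and tightens junctions, while S1pr3 also couples to Gq and to G12 and G13. The signal ends when Plpp3 removes the phosphate outside the cell or Sgpl1 cleaves the molecule inside it.

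Fragment totals and strand were uneven across the libraries. Fragments recovered from the values came to 14081222 to 16954482 in control and to 1590957, 834151 and 13324306 in I-PpoI. These totals count only fragments assigned to genes, so they are not read depth. Of mitochondrial fragments, I-PpoI mice 1 and 2 had 68.2% and 70.6% on genes of the minus strand, beside at most 0.0821% in the other libraries. Mitochondrial genes held 8.83 to 18.3% of control fragments and 6.42%, 38.2% and 48.2% of I-PpoI fragments. All 20 endothelial markers were detected, with summed FPKM of 3772 to 4246 in control and 1147 to 3012 in I-PpoI, and 20 proximal tubule markers summed to 421 to 1262 and to 201 to 1831. The labels give no sex: Xist had 4739 fragments in I-PpoI mouse 3 and at most 4 in any control, and the Y-linked Ddx3y had 0 there and 959 to 1672 in the controls. In I-PpoI mice 1 and 2 Xist had 0 and 70 fragments and Ddx3y 20 and 0. Mouse 1 thus had Ddx3y and no Xist fragments, as control mice 2 and 3 did. The counts of mice 1 and 2 come from libraries with most mitochondrial fragments on minus-strand genes, so their sex is not read from them. For mouse 3 sex and genotype cannot be told apart, and the sex of mice 1 and 2 is not known. Antisense gene models held 14.7% and 10.02% of fragments in I-PpoI mice 1 and 2 and 0.119 to 0.225% in the other libraries. With no strand setting given, FPKM of I-PpoI mice 1 and 2 may be counts of the opposite strand, and every I-PpoI mean, SD and percent of control below includes them. The part of fragment total, strand and mitochondrial share in these values was not tested. For that reason, values of I-PpoI mice 1 and 2 are given with I-PpoI mouse 3 beside them.

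In controls the set spanned a wide range of expression, given as FPKM, fragments scaled to exon length and to library size. Plpp3 had the highest control mean, at rank 163 of all genes, and S1pr1 came next at rank 327. Spns2 and S1pr3 followed, with overlapping values, and then Sphk2 and Sgpl1, whose control values overlapped as well. Apom and Sphk1 were last, with control values that overlapped. In I-PpoI mice the values of S1pr1, S1pr3, Spns2, Plpp3 and Sgpl1 were below their control means in all 3 mice. Those of Apom and Sphk1 were above it in all 3, and those of Sphk2 were above it in mice 1 and 2 only.

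**Figure D1:**
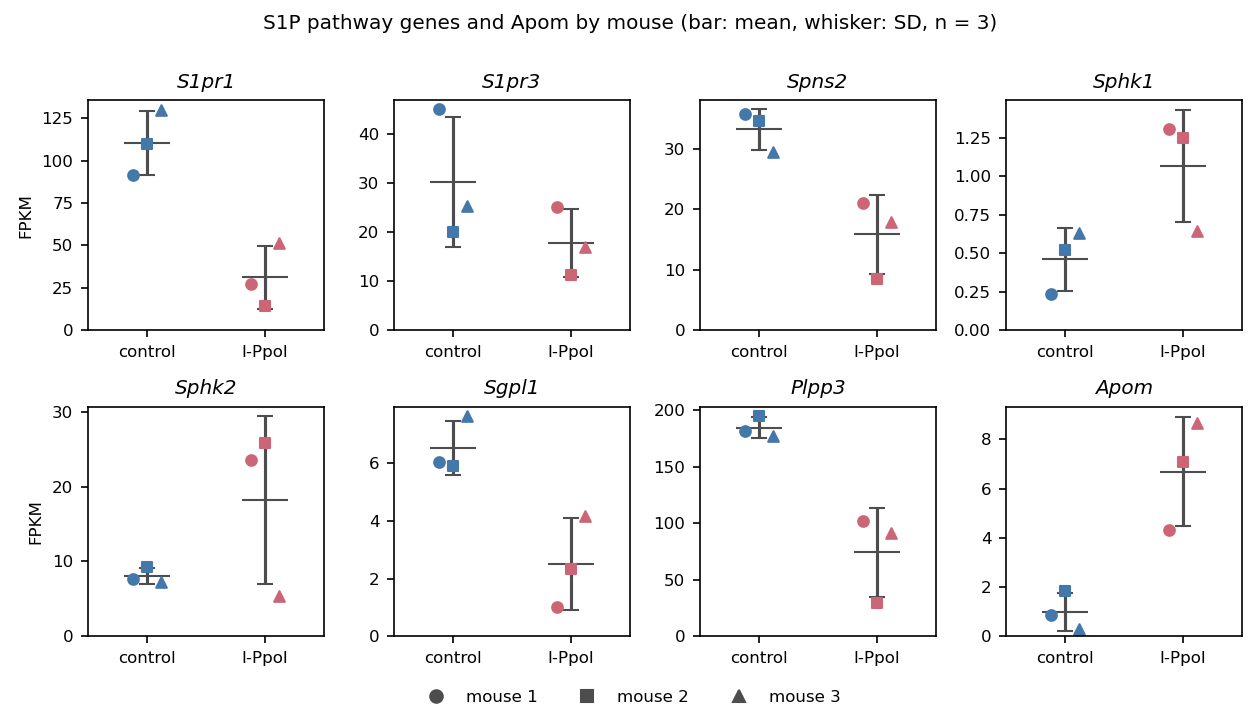
Deposited FPKM of each of the 8 genes (vertical axes start at 0 and differ between panels) in 3 control and 3 I-PpoI mice, with bars at the mean and whiskers of 1 SD. The 3 I-PpoI points of S1pr1, Spns2, Sgpl1 and Plpp3 lie below every control point, and those of Apom lie above every control point.

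S1pr1, the main endothelial S1P receptor (ENSMUSG00000045092, GRCm38 chr3:115710433-115715072, minus strand), was at 91.7, 109.9 and 129.8 FPKM in control. Its I-PpoI values were 27.4, 14.5 and 51.4 FPKM. The groups did not overlap, and the I-PpoI mouse with the most recovered fragments lay nearest to the controls. The means were 110.5 ± 19.1 FPKM for control and 31.1 ± 18.7 for I-PpoI (SD, n = 3 each), which puts I-PpoI at 28.2% of control, and I-PpoI mouse 3 alone stood at 46.5%. The S1pr1 values rest on 4511 to 6701 fragments in the controls and on 134, 37 and 2087 in I-PpoI. In bulk samples such as these, fewer cells of a type and less RNA per cell cannot be told apart. The log2 fold change was -1.95 (SE 0.50) on the log2(FPKM + 1) scale, where the median of the 14962 tested genes was itself -0.65.

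S1pr3, the second receptor (ENSMUSG00000067586, chr13:51408639-51422797, plus strand), was at 45.1, 20.1 and 25.3 FPKM in control and at 25.0, 11.2 and 17.0 in I-PpoI. These groups overlapped, since I-PpoI mouse 1 lay above control mouse 2. The means were 17.7 ± 6.92 and 30.1 ± 13.2 FPKM (SD, n = 3 each), with a log2 fold change of -0.72 (SE 0.45). Under median-of-ratios scaling, which removes the shift shared by most genes, the S1pr3 value was 0.093 and that of S1pr1 was -1.12. The FPKM ratio of S1pr1 to S1pr3 was 2.03, 5.48 and 5.13 in the controls and 1.10, 1.29 and 3.02 in I-PpoI, so it overlapped between the groups.

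The lincRNA gene Gm32834 runs across S1pr3 on the opposite strand and shares 45 bases of exon with it. Its FPKM was 2.86, 0.193 and 1.68 in control, 149 and 126 in the first 2 I-PpoI mice, and 0.510 in the third. Fragments of Gm32834 per S1pr3 fragment were 0.983 and 1.86 in that pair of mice and at most 0.0110 in the other 4 libraries. Among all tested genes, 18.7% had values in I-PpoI mice 1 and 2 that were both over 2-fold the highest of the other 4 libraries. These were 34.5% of the 7608 genes that a gene on the opposite strand overlaps and 2.31% of the other 7354. The part of strand in the S1pr3 and Gm32834 values was not tested.

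**Figure D2:**
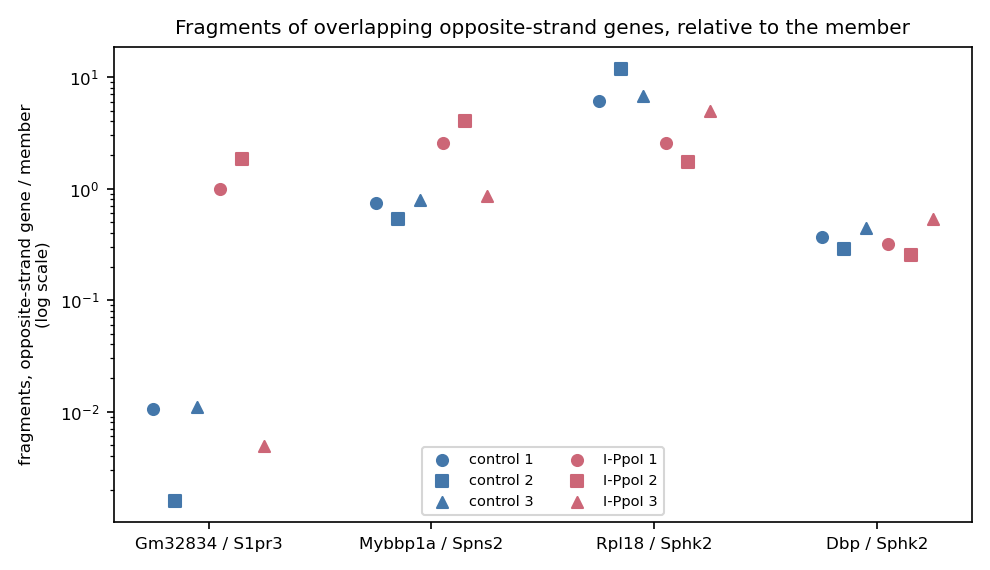
Fragments of the overlapping opposite-strand gene divided by fragments of S1pr3, Spns2 or Sphk2 in each library, on a log axis. For Gm32834 the 2 points of I-PpoI mice 1 and 2 lie near 1, and the other 4 lie at or below 0.0110.

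Of the other receptors, S1pr4, a receptor of lymphoid and blood cells, was the only 1 of 3 above the 1 FPKM mean needed for testing. It was at 12.1, 15.7 and 10.3 FPKM in control and at 13.8, 8.00 and 4.03 in I-PpoI. These groups overlapped. The 8 lymphocyte markers beside it summed to 25.9 to 44.7 FPKM in the controls and to 4.83 to 12.5 in I-PpoI, and their part in the S1pr4 values was not tested.

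Spns2, the S1P exporter of endothelium (ENSMUSG00000040447, chr11:72451638-72489904, minus strand), was at 35.7, 34.6 and 29.4 FPKM in control and at 21.1, 8.48 and 17.9 in I-PpoI. Every I-PpoI value was below every control value, with means of 15.8 ± 6.55 and 33.2 ± 3.36 FPKM (SD, n = 3 each) and a log2 fold change of -1.11 (SE 0.41). With median-of-ratios scaling the groups overlapped and the value was -0.30. Mybbp1a, whose exons share 131 bases with Spns2 on the other strand, had 0.534 to 0.796 fragments per Spns2 fragment in the controls, 2.57 and 4.03 in the first 2 I-PpoI mice, and 0.862 in the third.

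Sphk1, the cytoplasmic sphingosine kinase (ENSMUSG00000061878, chr11:116530925-116536675, plus strand), was the only member below the 1 FPKM filter and was not tested. It was at 0.233, 0.521 and 0.630 FPKM in control and at 1.31, 1.25 and 0.644 in I-PpoI. All I-PpoI values were above all control values, but I-PpoI mouse 3 lay next to control mouse 3. The I-PpoI values rest on 10, 5 and 41 fragments. For 41 fragments the exact 95% Poisson interval was 29.4 to 55.6. Control mouse 3 had 51 fragments. Its library total was 16954482 and that of I-PpoI mouse 3 was 13324306, so this count is not set against the interval. These intervals cover counting error only.

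Sphk2, the kinase found in nucleus and mitochondria (ENSMUSG00000057342, chr7:45709467-45718002, minus strand), was at 7.71, 9.23 and 7.29 FPKM in control and at 23.5, 25.8 and 5.38 in I-PpoI. I-PpoI mice 1 and 2 lay above every control and I-PpoI mouse 3 lay below every control. The means were 18.2 ± 11.2 and 8.08 ± 1.02 FPKM (SD, n = 3 each), with a log2 fold change of 0.84 (SE 0.60). Without I-PpoI mice 1 and 2, the value was -0.50, with I-PpoI mouse 3 as the only I-PpoI library. The high Sphk2 values were those of the 2 libraries with the mitochondrial strand shift, whose part in them was not tested. On the opposite strand, exons of Rpl18, a ribosomal protein gene, share 373 bases with it and those of Dbp, a circadian transcription factor, share 539.

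The second of the 2 RefSeq start sites of Sphk2 lies 250 bases from the first base of Rpl18, on opposite strands. The 250 bases before that Sphk2 start are shown since Rpl18 begins, on the other strand, at their far end. They are chr7:45715208-45715457, minus strand, from RefSeq on GRCm38.p6, with GC boxes in capitals (GGGCGG, read here as CCGCCC).

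Sphk2, second start site: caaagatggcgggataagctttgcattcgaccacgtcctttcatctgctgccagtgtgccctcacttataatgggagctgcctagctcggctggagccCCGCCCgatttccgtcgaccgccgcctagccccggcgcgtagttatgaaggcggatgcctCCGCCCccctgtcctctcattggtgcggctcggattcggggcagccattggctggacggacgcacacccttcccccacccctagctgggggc

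The GC boxes end 146 and 86 bases before the start site. A GC box on either strand was found in 32.7% of the 32851 RefSeq promoter windows of 250 bases, so its presence here is a description of the sequence only. Rpl18 had 6.09, 11.9 and 6.74 fragments per Sphk2 fragment in control and 2.55, 1.74 and 4.91 in I-PpoI.

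Sgpl1, the lyase that breaks S1P down irreversibly (ENSMUSG00000020097, chr10:61098642-61147703, minus strand), was at 6.04, 5.92 and 7.63 FPKM in control and at 1.01, 2.33 and 4.19 in I-PpoI. I-PpoI values were below all control values, although I-PpoI mice 1 and 2 had only 10 and 12 Sgpl1 fragments. The means were 2.51 ± 1.60 and 6.53 ± 0.9499 FPKM (SD, n = 3 each), with a log2 fold change of -1.20 (SE 0.42). After median-of-ratios scaling the Sgpl1 values of both groups overlapped, at -0.53.

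Plpp3, the membrane phosphatase that removes extracellular S1P and lysophosphatidic acid (ENSMUSG00000028517, chr4:105157347-105232764, plus strand), was at 181, 195 and 177 FPKM in control and at 102, 29.5 and 91.8 in I-PpoI. No I-PpoI value reached the control range. The means were 74.4 ± 39.2 and 185 ± 9.14 FPKM (SD, n = 3 each), with a log2 fold change of -1.48 (SE 0.52), and I-PpoI mouse 3 stood at 49.7% of the control mean on 3864 fragments. With median-of-ratios scaling the value was -0.64 and the groups still did not overlap. Plpp3 was the only member with no opposite-strand gene within 5 kb. Its promoter, the 250 bases before the RefSeq start, is shown as that of the most abundant member (chr4:105157097-105157346, plus strand, GRCm38.p6), with a KLF-type CACC box (CCACCC, read here as GGGTGG) and an ETS core (AGGAAG) in capitals.

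Plpp3: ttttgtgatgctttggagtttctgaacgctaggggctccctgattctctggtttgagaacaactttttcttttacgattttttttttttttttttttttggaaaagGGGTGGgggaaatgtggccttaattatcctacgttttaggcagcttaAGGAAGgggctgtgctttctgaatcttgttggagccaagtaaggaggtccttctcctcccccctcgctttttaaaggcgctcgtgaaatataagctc

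The CACC box ends 138 bases and the ETS core 91 bases before the start. On either strand, CCACCC was found in 28.1% and AGGAAG in 29.5% of all promoter windows of this length.

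Apom (ENSMUSG00000024391, chr17:35128997-35132050, minus strand) was at 0.855, 1.82 and 0.291 FPKM in control and at 4.31, 7.07 and 8.67 in I-PpoI. All 3 I-PpoI values lay above all 3 control values, and the lowest I-PpoI value exceeded the highest control value. The means were 6.68 ± 2.21 and 0.990 ± 0.775 FPKM (SD, n = 3 each), a 6.75-fold ratio, with a log2 fold change of 1.98 (SE 0.43). The fragments behind these values were 14, 26 and 5 in control and 7, 6 and 117 in I-PpoI. I-PpoI mouse 3 held most of the I-PpoI fragments of Apom. These 117 fragments have an exact 95% Poisson interval of 96.8 to 140.2, and the FPKM of that mouse was 8.75-fold the control mean. The 7 and 6 fragments of I-PpoI mice 1 and 2 have intervals of 2.81 to 14.4 and 2.20 to 13.1. No exon of Apom is shared with a gene on the opposite strand, the nearest of which, D17H6S53E, lies 142 bases away.

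RefSeq starts Apom at 35131801, which is 249 bases inside the gene as the file gives it, and GENCODE M21 annotates 35131724 to 35132050 as 5′ UTR. A 30-base stretch of it (chr17:35131816-35131845, minus strand, GRCm38.p6) is shown because it holds the nearer of 2 matches to the nuclear receptor core GGGTCA, in capitals.

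Apom: tagcaggttaaaGGGTCAagggtcgaggcg

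The match ends 26 bases before the RefSeq start, and GGGTCA on either strand was found in 11.6% of the 32851 windows. The 250 bases held no CAAAGT (HNF4-type core, 12.6% of windows), GTTAAT (HNF1-type half-site, 6.43%) or AGGTCA (14.0%). This says only that these letters are not there. They also held 1 match to the ETS core AGGAAG, found in 29.5% of windows. GGGTCA and AGGTCA were added to the search after the sequence had been seen.

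Read from the fit over all genes, limma called 0 of the 7 tested members at adjusted p under 0.05. The adjusted p was 0.132 for S1pr1, Spns2, Sgpl1, Plpp3 and Apom, 0.232 for S1pr3 and 0.284 for Sphk2 in limma. Limma called 0% of the 14962 genes, and 5457 had an unadjusted p under 0.05, of them 633 higher and 4824 lower in I-PpoI. Median-of-ratios scaling also called 0, with 814 higher and 429 lower at unadjusted p under 0.05, and limma-voom on recovered fragments called 0, with 3773 at unadjusted p under 0.05. Without I-PpoI mouse 3 limma called 8438 genes and 6 members, Sphk2 and Apom higher and S1pr1, Spns2, Sgpl1 and Plpp3 lower. The I-PpoI side of that fit is the 2 libraries with few recovered fragments and the strand shift. Groups did not overlap for 4 members on the lower side, against 45.1% of tested genes. On the higher side this held for 1 tested member, Apom, against 2.24% of tested genes, and for Sphk1, which is not among the tested genes. As the set was chosen on this comparison, nothing is read from these counts. With median-of-ratios scaling S1pr1 and Plpp3 remained below and Apom above, with the untested Sphk1, where the shares of tested genes were 9.76% lower and 7.65% higher. On that scale the highest I-PpoI value of S1pr1 was 62.3, in mouse 3, and the lowest control value was 63.6. For Plpp3 these were 119, in mouse 1, and 126. The lowest I-PpoI value of Apom was 5.04, in mouse 1, and the highest control value was 1.38. Rescaling to the summed FPKM of nuclear protein-coding genes, which leaves out the mitochondrial fragments, put S1pr1 at 72.4 in I-PpoI mouse 3 against 78.2 to 120.3 in control and Plpp3 at 129 against 147 to 164. On that scale Sphk2 was at 7.58 in I-PpoI mouse 3 against 6.57 to 6.94 in control, so that its groups no longer overlapped, whereas those of Sgpl1 did. With median-of-ratios scaling and I-PpoI mouse 3 as the only I-PpoI library, a fit chosen after the data were seen, the log2 fold change was -0.35 for S1pr1, -0.27 for Plpp3 and 2.94 for Apom.

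The members were also set against the median of 20 endothelial markers in the same library, which does not move with library scaling apart from the added pseudocount of 1. On the log2(FPKM + 1) scale this median lay at -0.63, -2.09 and -1.19 from its control mean in I-PpoI. Plpp3 minus the median was 0.12, 0.16 and 0.17 in control and -0.07, -0.36 and 0.34 in I-PpoI, with mice 1 and 2 below the control range and mouse 3 above it. S1pr1 minus the median was -0.85, -0.66 and -0.28 in control and -1.93, -1.34 and -0.48 in I-PpoI, with mice 1 and 2 below every control and mouse 3 within their range. Relative to that median the I-PpoI minus control difference was -0.18 for Plpp3, 0.19 for Spns2, 0.11 for Sgpl1, -0.65 for S1pr1 and 0.58 for S1pr3, and the groups overlapped for all 5. For Sphk2 and Apom it was 2.14 and 3.28, and the groups did not overlap. Sphk2 minus the median was -4.26, -4.10 and -4.26 in control and -2.14, -0.54 and -3.52 in I-PpoI. There I-PpoI mouse 3 lay nearest to the controls, and the higher values were those of mice 1 and 2. Apom minus the median was -6.49, -5.95 and -6.94 in control and -4.35, -2.28 and -2.92 in I-PpoI. Because of the pseudocount a gene at 0 in every library would reach 1.30 on this measure. The 1.80 of Sphk1, which lies near 0, is thus mostly fixed by the scale. The lower endothelial median adds this 1.30 to the difference of every member. Apom also lay near 0 in control, at 0.291 to 1.82 FPKM, and its 3.28 includes the 1.30 too.

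**Figure D3:**
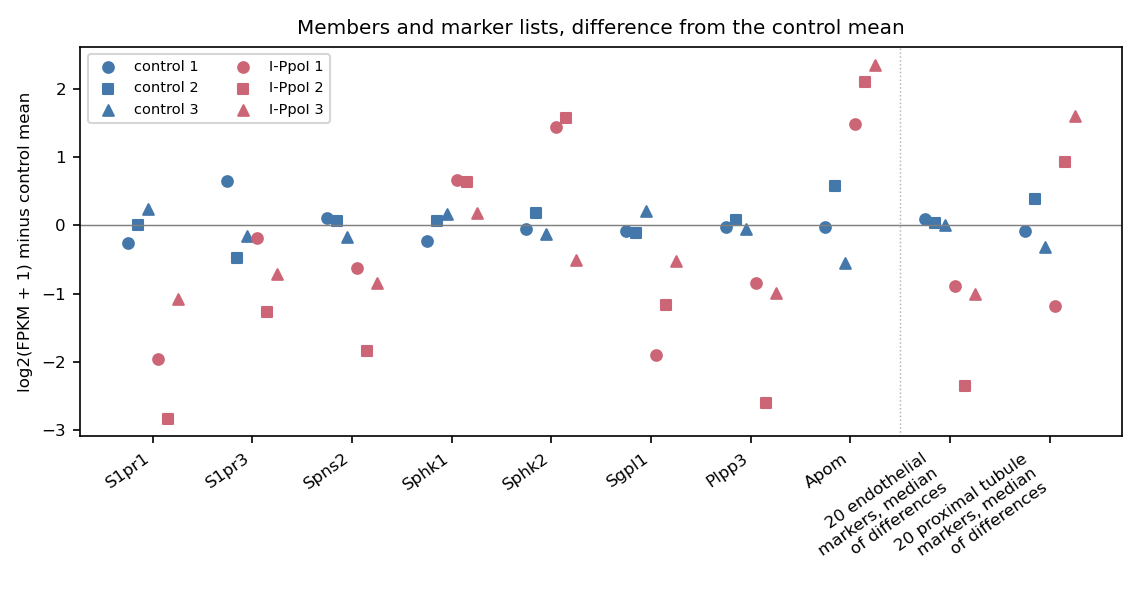
Difference of each library from the control mean on the log2(FPKM + 1) scale, for the 8 genes and for 20 endothelial and 20 proximal tubule markers, as the median over the markers of each marker's own difference. Plpp3 lies at -0.85, -2.61 and -0.999 in I-PpoI, where the median difference of the endothelial markers is -0.88, -2.35 and -1.01, while Apom lies above 0 in all 3.

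Apom was also set beside proximal tubule genes, since tubule cells are a known site of its synthesis. The median of the 20 tubule markers in a library lay at -1.58, 0.97 and 1.96 from its control mean in I-PpoI, and Apom at 1.49, 2.09 and 2.35. Apom and the tubule median thus differed most in I-PpoI mouse 1, where the tubule median was below control and Apom rested on 7 fragments. Apom minus the tubule median was -2.58, -1.98 and -2.55 in control and 0.70, -1.24 and -1.97 in I-PpoI. The groups did not overlap on this measure, but I-PpoI mouse 3, which holds 117 of the I-PpoI fragments, lay next to control mouse 2. Of the 20 tubule markers 15 had a log2 fold change above 0 and 5 below, with a median of 0.40, and limma called 0. Lrp2, the megalin receptor of the tubule, was at 2.33, 3.65 and 3.12 FPKM in control and at 0.784, 14.3 and 66.5 in I-PpoI. The part of tubule RNA in the Apom values was not tested.

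The 5 genes whose pattern was most like that of Apom, among 6331 protein-coding genes and over 6 libraries, were Dnase1, Fam151a, Pdzk1, Slc3a1 and Tcea3. Likeness was the root-mean-square difference of log2(FPKM + 1), each gene centred on its own mean, and it ran from 0.333 for Dnase1 to 0.506 for Tcea3. Pdzk1, a scaffold of apical transporters, was at 12.7, 18.8 and 12.4 FPKM in control and at 28.6, 40.6 and 46.7 in I-PpoI. Slc3a1, an amino acid transporter subunit, was at 4.50, 6.88 and 3.61 FPKM in control and at 26.9, 41.5 and 62.5 in I-PpoI. Among the genes most alike to S1pr1 were Cd200, Pmp22 and Stom, with differences of 0.131, 0.137 and 0.140. Cd200, an immune-inhibitory surface protein found on endothelium, was at 127.7, 122.4 and 142.3 FPKM in control and at 37.2, 17.3 and 65.8 in I-PpoI.

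**Figure D4:**
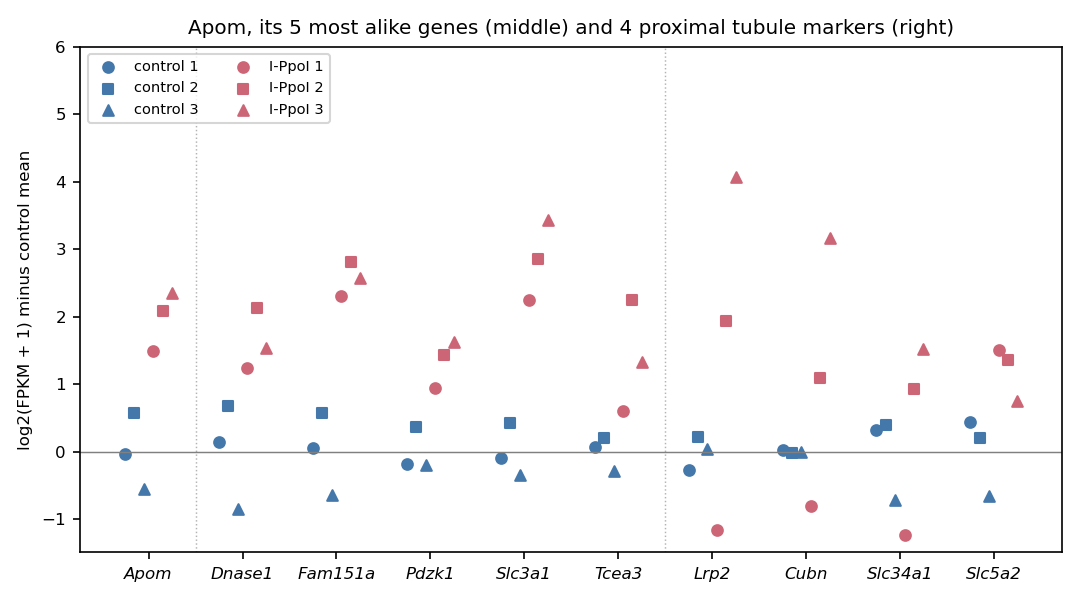
Difference from the control mean on the log2(FPKM + 1) scale in each library for Apom, its 5 most alike genes and 4 of the 20 tubule markers, Lrp2, Cubn, Slc34a1 and Slc5a2. I-PpoI mouse 1 lies above 0 for Apom (1.49), its alike genes and Slc5a2, and below 0 for Lrp2, Cubn and Slc34a1.

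Among 12 other genes of sphingosine and S1P handling, 8 were tested and limma called 0, with all 8 log2 fold changes below 0 and a median of -1.24. For 6 of them every I-PpoI value was below every control value, as for 45.1% of all tested genes, whose median was -0.65, and Acer1 was at 0 in every library. Plpp1, a phosphatase of the same family as Plpp3, was at 509, 786 and 534 FPKM in control and at 327, 109 and 297 in I-PpoI. Asah1, the acid ceramidase that frees sphingosine, was at 26.3, 23.2 and 27.9 FPKM in control and at 2.94, 3.87 and 18.9 in I-PpoI. Both had I-PpoI values below every control value, with I-PpoI mouse 3 at the highest Asah1 value of its group.

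All 17 signalling partners of the receptors were tested, and limma called 0. Their log2 fold changes were all below 0, with a median of -1.20, beside -0.65 over all tested genes and -1.41 over the 20 endothelial markers. Gnai2, the Gi subunit downstream of S1pr1, was at 249, 280 and 238 FPKM in control and at 137, 76.1 and 129 in I-PpoI. Rac1, the GTPase through which S1pr1 strengthens the junction, was at 125, 142 and 127 FPKM in control and at 43.7, 23.6 and 64.3 in I-PpoI. Nos3, endothelial nitric oxide synthase, was at 118.6, 75.4 and 91.9 FPKM in control and at 84.4, 31.2 and 34.0 in I-PpoI. Nos3 overlapped between the groups, in contrast to Gnai2 and Rac1.

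Of 19 apolipoprotein M carriers, receptors and regulators, 13 were tested and limma called 0, with 8 log2 fold changes above 0, 5 below and a median of 0.81. Apoe, the lipoprotein ligand of the highest level in this list, was at 59.0, 105.7 and 95.1 FPKM in control and at 94.2, 271 and 125.6 in I-PpoI. These groups overlapped. Pltp, which moves phospholipid between lipoproteins, was at 123, 121.5 and 110.3 FPKM in control and at 128.5, 82.9 and 53.4 in I-PpoI, so its groups overlapped too.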

How the data were processed

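RNA of CD31-sorted kidney cells from 6 mice was sequenced as paired ends, per the labels' protocols. The deposited values are FPKM per gene, normalized by the authors to fragments and exon length. DESeq2 1.28.13 and the builds mm10 and GRCm38 are named in the submitters' processing notes. Which aligner and counter were used, and with what strand setting, was not given in the sources used here. FPKM times exon length gave whole fragments (within 0.05) for 98.5 to 98.6% of values under 1000 fragments.

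Limma 3.58.1 in R 4.3.3 was applied to log2(FPKM + 1) of the genes whose mean reached 1 FPKM, over 6 libraries without a block, with Benjamini-Hochberg adjustment over all tested genes. This scale understates fold changes of low genes. The labels describe separate mice, and no count model was the main test because the unit is FPKM. Members, lists and tests were chosen with earlier results of these data known. Each list was counted whole, up to 4 genes of highest mean FPKM were named from each, and alike genes needed a mean of at least 5 FPKM. Sex-linked genes, Acer1, Cubn, Slc5a2, Cers1, Degs2, Smpd2 and Ugt1a2 were named after their values were seen. Some genes that the naming rule takes are not reported here. Gene coordinates are those of the file (GRCm38), and 55227 gene IDs are in GENCODE M21. Promoters came from RefSeq, which matched 7 of 8 members. The alternatives were other pseudocounts, filters and scalings, array weights, limma-voom, the replicate block and left-out libraries.

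The fit was tested on simulated data at the real library totals, with a dispersion of 0.05. Before the filter at a mean of 1 FPKM, 200 changed genes were drawn, and 12506 genes passed it. Of the changed genes that passed, the fit recovered 4.76% at 2-fold and 83.3% at 4-fold, and it called 10 unchanged genes. All simulated libraries followed the control profile, without the strand, mitochondrial or shared shifts of the real data. These shares therefore do not say what the fit can find in the real libraries. Figures were drawn with matplotlib 3.10.9 in python 3.11.15.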

Additional observations from a re-analysis of the deposited data

How the results depend on the processing

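With FPKM of every library summed to the same total, limma called 5153 genes and 4 members, with log2 fold changes of -3.14 for S1pr1, -2.25 for Spns2, -2.10 for Sgpl1 and -2.71 for Plpp3, and -0.33 for Sphk2, which turned its direction. Array weights called 6747 genes and 5 members, with -2.37 for S1pr1, 1.39 for Sphk2, -1.54 for Sgpl1, -1.61 for Plpp3 and 2.18 for Apom. S1pr3 turned to 0.093 with median-of-ratios scaling, and Sphk2 turned to -0.50 without I-PpoI mice 1 and 2. Median-of-ratios scaling without those 2 libraries, chosen after the data were seen, called 1 gene, Ugt1a2, turned Sgpl1 to 0.083 and left S1pr1 at -0.35, Plpp3 at -0.27, Spns2 at -0.15, S1pr3 at -0.012 and Sphk2 at 0.13, with Apom at 2.94. A pseudocount of 0.1 moved Sphk1 and Apom relative to the endothelial median to 2.39 and 4.18. The cause of these changes was not tested.

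Leaving out each library in turn called 0 to 8438 genes and 0 to 6 members, all from the fit without I-PpoI mouse 3. The log2 fold changes ran from -2.39 to -1.52 for S1pr1, -0.99 (without I-PpoI mouse 1) to -0.40 (without control mouse 1) for S1pr3, -1.35 to -0.74 for Spns2, 0.47 to 1.51 for Sphk2, -1.53 to -0.85 for Sgpl1, -1.80 to -0.92 for Plpp3 and 1.70 to 2.27 for Apom. The fit with the replicate block called 0 genes and 0 members, with 4510 genes at unadjusted p under 0.05. Same-numbered mice correlated at 0.09, 0.06 and -0.02, and 4 of 6 libraries correlated best with their own number, so the numbers were not read as pairs. Restricting to protein-coding genes with no opposite-strand gene within 5 kb tested only Plpp3 of the members. That fit also used median-of-ratios scaling computed on those genes and gave -0.33, beside -0.64 with such scaling over all tested genes. A mean of at least 5 FPKM tested 5 members. Low fragment numbers limit Apom, Sphk1 and Sgpl1 most, since I-PpoI mice 1 and 2 hold at most 12 fragments of each.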

Other observations

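Ceramide and sphingolipid synthesis, which supplies the sphingosine that the kinases use, was counted as a list of 24 genes. Of these 20 were tested and limma called 0, with 4 log2 fold changes above 0, 16 below and a median of -1.28. Sptssa, a small subunit of serine palmitoyltransferase, was at 40.6, 69.0 and 43.8 FPKM in control and at 11.5, 6.29 and 23.4 in I-PpoI mice 1, 2 and 3. Cers2, a ceramide synthase for very long acyl chains, was at 46.1, 41.1 and 40.0 FPKM in control and at 22.2, 10.4 and 23.2 in I-PpoI. Degs1, which makes the double bond of ceramide, was at 43.5, 56.7 and 36.9 FPKM in control and at 8.90, 7.37 and 24.8 in I-PpoI. In all of these the I-PpoI values lay below every control value. Ormdl2, a brake on serine palmitoyltransferase, was at 11.3, 14.6 and 9.61 FPKM in control, at 84.8 and 64.3 in I-PpoI mice 1 and 2, and at 5.84 in I-PpoI mouse 3. Cers1, Degs2, Ormdl2 and Smpd2 were the 4 genes of the list with this split between I-PpoI mice 1 and 2 and the other libraries, and all 4 are overlapped by a gene on the opposite strand. They are 20% of the tested genes of the list, beside 18.7% of all tested genes.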
